A study of Mus musculus with 20 samples.

Results

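The left ventricle of dnOGAh-Tg mice was compared with that of Control mice after 24 weeks of induction by bulk RNA sequencing, in 5 libraries per group, 10 of the 20 libraries of the series. In dnOGAh-Tg mice a dominant-negative form of O-GlcNAcase is overexpressed specifically in the heart, and doxycycline food was used to induce it. The promoter that drives it, the genotype of the Control mice beyond that name, and the strain, age and sex of the mice are not stated in the labels. The other 10 libraries, from mice induced for 2 weeks, were not used. The features were the genes of the 24-week table: of 19985 genes listed, 14676 were tested, those reaching a normalized count of 10 in 5 or more libraries, and 5309 fell short of that filter.

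O-GlcNAc is a single sugar that the enzyme Ogt places on serine and threonine of proteins inside the cell, and O-GlcNAcase, the product of Oga, takes it off. Its supply follows glucose and amino acid supply through the hexosamine pathway, and in the heart the modification is found on contractile, signalling and mitochondrial proteins and on transcription regulators. A heart under lasting load usually turns on genes of fetal heart and skeletal muscle and turns down genes of excitation and of fuel oxidation. By its title, the series asks how a sustained rise of this modification in cardiomyocytes bears on hypertrophy and mitochondria.

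Values are normalized read counts per library or mean ± SD with n = 5 per group, and changes are log2 differences, dnOGAh-Tg minus Control, of values after adding 1, with the standard error (SE) and Benjamini-Hochberg adjusted p from limma; genes with an adjusted p under 0.05 are said to have risen or fallen. Control libraries held 24240718 to 30610824 recovered reads each, and dnOGAh-Tg libraries 23953851 to 37844796. The libraries separated by group along the first principal component, which held 46.4% of the variance, with every Control library at -30.8 or below and every dnOGAh-Tg library at 27.04 or above. The 10 most abundant genes took 20.2 to 22.2% of the reads in Control and 16.2 to 17.7% in dnOGAh-Tg, and genes of the mitochondrial genome took 14.9 to 17.1% and 11.9 to 13.5%. The labels do not tie each library to its own mouse, so p-values cover only how far these libraries spread, which may be technical. The check of the ventricle label gave an atrial signal in 1 library: Myl7, the atrial myosin light chain, had 2.13, 6.11, 13.5, 0 and 3.80 in Control 1 to 5 and 1.10, 11.6, 0.939, 912 and 2.01 in dnOGAh-Tg 1 to 5. The same library, dnOGAh-Tg 4, had the highest count of Bmp10, an atrial growth factor named after its values were seen, with 5.33, 22.4, 1.04, 0 and 0 in Control 1 to 5 and 3.29, 0, 5.64, 105 and 5.03 in dnOGAh-Tg 1 to 5. Both genes were below the filter, and counts of atrial genes, with the changes of Sln, Myl4, Dkk3 and Nppa, are given with and without that library.

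Oga (ENSMUSG00000025220, chromosome 19, 45738698 to 45772276 on GRCm39, the build of all gene coordinates here) checks the label. It had 3068, 2933, 3721, 2521 and 3454 in Control 1 to 5 and 32250.0, 21661, 56078, 52593 and 28853 in dnOGAh-Tg 1 to 5, so that every dnOGAh-Tg library lay above every Control library (log2 change 3.53, SE 0.23, adjusted p = 1.26e-06). The lowest dnOGAh-Tg library, replicate 2, still held several times the highest Control value, and replicates 3 and 4 were highest. The labels do not say whether transgene reads align to this gene, and the level stands for the gene and the transgene together.

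Of the 14676 genes tested, 3296 passed the test, 22.5% of all, with 1662 higher (11.3%) and 1634 lower (11.1%) in dnOGAh-Tg. The groups did not overlap in 16.7% of the genes, with dnOGAh-Tg higher in 8.49% and lower in 8.19%. The median log2 change over all genes tested was -0.00. Large rises outnumbered large falls: 561 genes rose and 321 fell by at least 2-fold, and 68 rose but 9 fell by at least 8-fold. The balance differed with the level of a gene, taken as its mean over all 10 libraries. Among 753 genes with a mean of 5000 or more, 10.1% rose and 27.2% fell, while among 2525 genes with a mean under 50, 11.4% rose and 5.43% fell. Of the highest class 13 genes rose and 21 fell by at least 2-fold, and of the lowest class 224 rose and 106 fell by that much. Low genes need a larger change to pass, so the 2-fold counts of the classes are not strictly comparable.

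**Figure D1:**
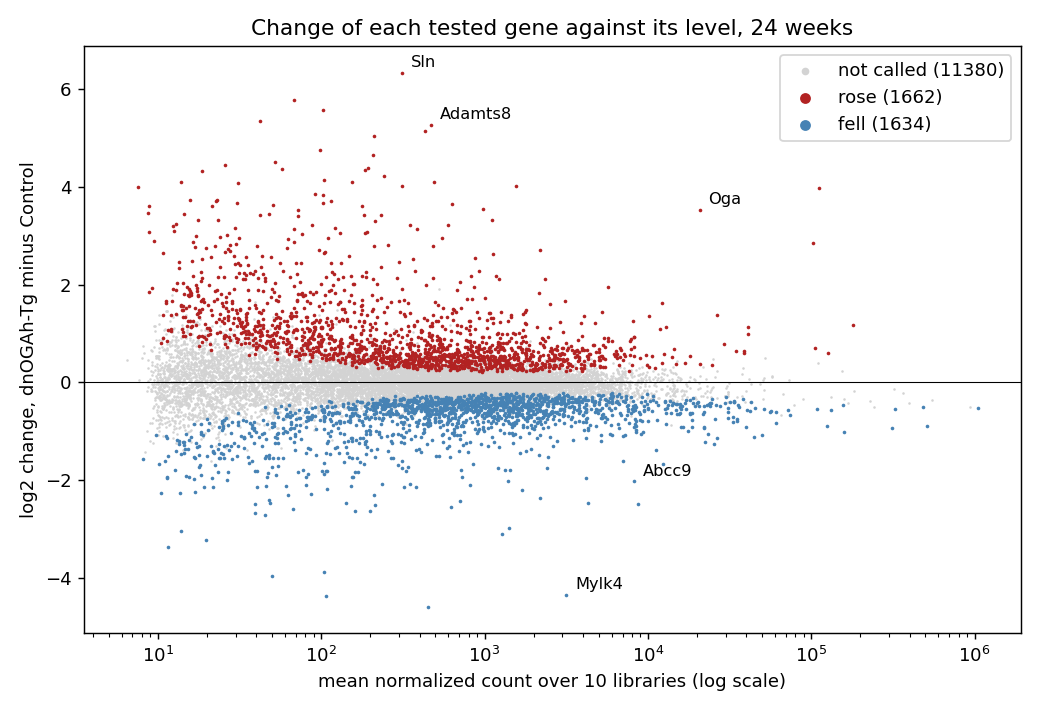
Log2 change of each of the 14676 tested genes (dnOGAh-Tg minus Control, vertical axis) against its mean normalized count over the 10 libraries (horizontal axis, log scale), with the 1662 genes that rose in red, the 1634 that fell in blue and the others in grey. The largest rises, such as Sln and Adamts8, sit among low genes, and the most abundant genes lie mostly below 0.

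Genes with low counts in Control ventricle led the rises. The leading rises and falls were picked among called genes whose groups did not overlap, so their separation follows from that choice. Some genes low in Control, such as Sln, Syt13 and Atp1b4, reached the filter only with their dnOGAh-Tg libraries. Sln, a small protein that restrains calcium uptake into the sarcoplasmic reticulum and is abundant in atria and slow muscle, had 3.20, 4.07, 12.5, 11.9 and 2.53 in Control 1 to 5 and 322, 540.0, 519, 1358 and 355 in dnOGAh-Tg 1 to 5. The 4 dnOGAh-Tg libraries with Myl7 at 11.6 or less had 322 to 540 counts, and dnOGAh-Tg 4, with Myl7 at 912, had the highest value. The change was 6.33, SE 0.46 (adjusted p = 2.15e-06) and 5.99 (adjusted p = 4.89e-06) without dnOGAh-Tg 4. Adamts8, a secreted metalloprotease (chromosome 9, 30853858 to 30875134), had 25.6, 24.4, 18.7, 27 and 19 in Control 1 to 5 and 865, 1055, 907, 1059.8 and 705 in dnOGAh-Tg 1 to 5. Its libraries were close together in both groups, and its change (log2 change 5.26, SE 0.16, adjusted p = 1.06e-09) had the smallest adjusted p of all genes. Vgll2, a cofactor of TEAD transcription factors known from skeletal muscle (chromosome 10, 51898598 to 51904567), had 124, 294, 183, 113 and 206 in Control 1 to 5 and 4450.4, 2741, 2810.0, 2173 and 2415 in dnOGAh-Tg 1 to 5. No dnOGAh-Tg library came near the Control range (log2 change 4.02, SE 0.25, adjusted p = 1.04e-06).

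Syndig1, a synaptic protein that interacts with glutamate receptors, rose from 25 ± 11.3 to 459 ± 127 (log2 change 4.21, SE 0.29, adjusted p = 1.92e-06). Nos1, the neuronal nitric oxide synthase (chromosome 5, 117919097 to 118096905), had 7.46, 15.3, 27, 4.32 and 6.33 in Control 1 to 5 and 136, 273, 241, 169 and 158 in dnOGAh-Tg 1 to 5. All dnOGAh-Tg libraries exceeded all Control libraries (log2 change 4.13, SE 0.40, adjusted p = 2.05e-05), although Control counts were low, and adding 1 to a low count makes its log2 change smaller. Syn2, a synapsin of synaptic vesicles (chromosome 6, 115111863 to 115258967), started higher and had 164, 251, 281, 149 and 181 in Control 1 to 5 and 2139, 1673, 2215, 2009 and 1976 in dnOGAh-Tg 1 to 5. Its groups were far apart (log2 change 3.32, SE 0.17, adjusted p = 1.36e-07). The calcium channel subunit gene Cacna2d3 rose from 38.3 ± 3.75 to 424 ± 82.6 (log2 change 3.42, SE 0.16, adjusted p = 6.9e-08), and Adgra1, an adhesion receptor coupled to G proteins, from 18.2 ± 8.53 to 353 ± 106 (log2 change 4.34, SE 0.39, adjusted p = 1.21e-05). Syt13, of the synaptotagmin family, rose from 3.44 ± 4.20 to 58.9 ± 32.3 (4.08, SE 0.56). Of 7 tested markers of Schwann cells, the glia of peripheral nerve, 1 rose, Ncam1 (2.15, SE 0.21), and 0 fell; their part in these rises was not tested.

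Adamts20, a metalloprotease of the family of Adamts8, rose from 17.8 ± 8.37 to 293 ± 52.7 (4.09, SE 0.31), and Ildr2, a membrane protein of the immunoglobulin type, from 52 ± 19.8 to 928 ± 392 (4.09, SE 0.29). Cda, which salvages pyrimidine nucleosides, had 25.6, 37.7, 48.9, 32.4 and 32.9 in Control 1 to 5 and 739.7, 769.5, 395, 499.7 and 564 in dnOGAh-Tg 1 to 5. The groups did not come close (log2 change 4.01, SE 0.21, adjusted p = 1.9e-07). Ckmt1, the ubiquitous mitochondrial creatine kinase, rose from 24.4 ± 3.11 to 197 ± 31.2 (log2 change 2.96, SE 0.16, adjusted p = 3.45e-07). Muscle creatine kinase Ckm and its sarcomeric mitochondrial partner Ckmt2 moved the other way, as described with creatine metabolism. Shisa4, a small membrane protein, rose from 63.2 ± 13.9 to 449.6 ± 93.9 (2.81, SE 0.18). Sln, Adamts8, Vgll2, Nos1, Syn2 and Cda rose in each of the 19 alternative analyses that were run.

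**Figure D2:**
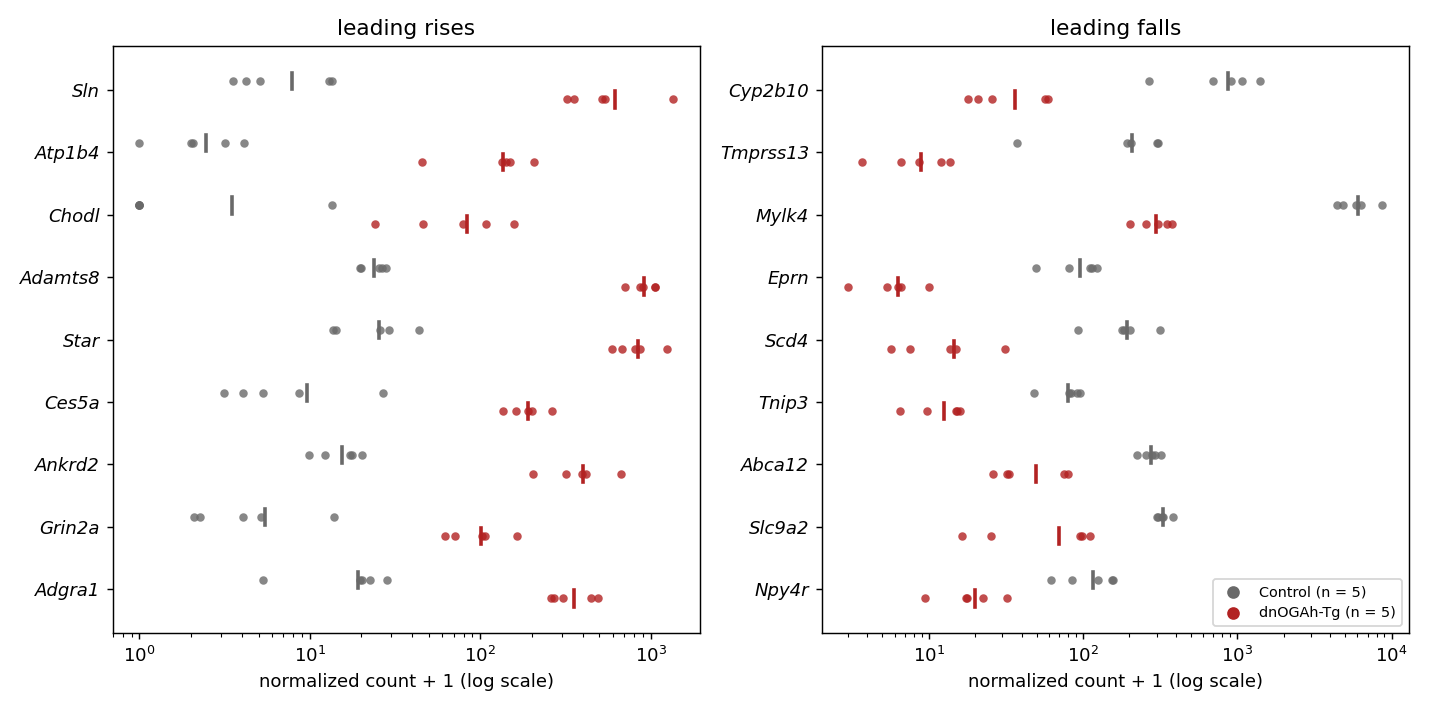
Normalized read counts per library (horizontal axis, log scale after adding 1) of 9 of the leading rises and 9 of the leading falls, with Control libraries in grey and dnOGAh-Tg libraries in red, and the group means as vertical bars. The 18 genes were picked among called genes whose groups do not overlap, so their separation follows from that choice. Control points of Atp1b4 and Chodl reach 0 counts.

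Genes abundant in Control ventricle were among the largest falls. Mylk4, a kinase of striated muscle that phosphorylates myosin light chains (chromosome 13, 32884810 to 32967937), had 8729, 6358, 4411, 5875 and 4818 in Control 1 to 5 and 199.7, 303, 256, 348 and 378 in dnOGAh-Tg 1 to 5. Every dnOGAh-Tg library was far below the lowest Control library (log2 change -4.33, SE 0.20, adjusted p = 6.9e-08). Lrtm1, a leucine-rich membrane protein (chromosome 14, 28740165 to 28755602), had 14072, 20148, 10280.5, 14123 and 13516 in Control 1 to 5 and 2103, 5493, 3967, 727 and 3114 in dnOGAh-Tg 1 to 5. The groups were apart (log2 change -2.48, SE 0.42, adjusted p = 0.00113). Rbfox1, an RNA-binding protein that regulates splicing in heart and brain (chromosome 16, 5703219 to 7229390), had 1132, 1251, 816, 1125 and 995 in Control 1 to 5 and 143, 281, 241, 103 and 188 in dnOGAh-Tg 1 to 5. No dnOGAh-Tg library reached the lowest Control value (log2 change -2.54, SE 0.23, adjusted p = 1.51e-05). Plxnb1, a receptor for semaphorins, fell from 1196 ± 132 to 223 ± 33 (log2 change -2.42, SE 0.12, adjusted p = 1.36e-07). Slc9a2, a sodium-proton exchanger, fell from 328 ± 33.1 to 68.4 ± 44.9 (log2 change -2.62, SE 0.47, adjusted p = 0.00166), and Npy4r, a receptor for peptides of the neuropeptide Y family, from 116 ± 42 to 18.9 ± 8.32 (-2.58, SE 0.34). Adhfe1, a mitochondrial enzyme that oxidizes hydroxy acids, fell from 2055 ± 139.5 to 596 ± 38.2 (log2 change -1.78, SE 0.08, adjusted p = 6.9e-08), an adjusted p equal to those of Mylk4 and Cacna2d3. Ctnnal1, a relative of alpha-catenin, fell from 1116 ± 143 to 324 ± 40.8 (-1.78, SE 0.12). These 8 falls kept their call in each alternative analysis.

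Genes that respond to stretch and build the Z-disc, the anchor of the thin filaments, mostly rose. Of 27 members tested, 15 rose and 1 fell, against 11.3% and 11.1% of all genes tested, with a median log2 change of 0.50. These shares of all genes are the background for every list that follows. All gene lists and marker lists were chosen with earlier results of these data known. Their counts beside the background are therefore descriptions and not tests. Ankrd1, a stretch-responsive ankyrin-repeat protein of the sarcomere and nucleus, had 72719, 159040.3, 106573, 66264 and 176273 in Control 1 to 5 and 244143, 315255, 239675, 208578 and 219776 in dnOGAh-Tg 1 to 5. All dnOGAh-Tg libraries lay above all Control libraries (log2 change 1.18, SE 0.26, adjusted p = 0.00616). Its relative Ankrd2, the stretch protein of skeletal muscle, had 19.2, 11.2, 16.6, 16.2 and 8.86 in Control 1 to 5 and 665, 415, 204, 395 and 317 in dnOGAh-Tg 1 to 5. The gene was low in Control and higher in every dnOGAh-Tg library (log2 change 4.64, SE 0.29, adjusted p = 1.04e-06). Xirp2, an actin-binding repeat protein of the intercalated disc, rose from 25622 ± 4564 to 56503 ± 9636 (1.14, SE 0.15), and Synpo2l, a Z-disc protein, from 5795 ± 1454 to 14519 ± 2041 (1.35, SE 0.17). Csrp3, the muscle LIM protein, was at 0.50 and not called (adjusted p = 0.0527). It passed without Control 2 (adjusted p = 0.0277), with edgeR and DESeq2 on recovered reads (0.0498 and 0.0226) and with quantile normalization (0.00129). Csrp3 also passed with the library number as a replicate block. Fhl2, a LIM protein that restrains growth signalling, was the exception and fell from 36728 ± 7150.0 to 16356 ± 696 (log2 change -1.14, SE 0.13, adjusted p = 8.42e-05).

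Muscle isoforms of atria, embryonic heart and skeletal muscle were tested as a list of 17 genes above the filter, of 28 listed. Of these 10 rose and 2 fell, with a median of 1.47. Without dnOGAh-Tg 4, 12 rose and 2 fell. Members low in Control, such as Sln and Mybpc1, reached the filter only with their dnOGAh-Tg libraries. Members below the filter are outside these counts, so the filter itself favours members that rose. Mybpc2, the fast skeletal form of myosin-binding protein C, had 1659, 2144, 3807, 1545 and 2825 in Control 1 to 5 and 8704, 10069, 10996, 9321 and 5778 in dnOGAh-Tg 1 to 5. Its level was already substantial in Control, and the groups were apart (log2 change 1.96, SE 0.24, adjusted p = 0.000111). The light chain gene Myl1 of fast skeletal muscle rose from 1768 ± 598 to 4053 ± 1072 (1.23, SE 0.24), and Mybpc1, the slow form, from 10.04 ± 5.59 to 70.7 ± 33.1 (2.78, SE 0.59). Myl4, the atrial essential light chain, had 49, 67.2, 72.8, 61.6 and 60.8 in Control 1 to 5 and 117, 142, 97.7, 4528 and 96.6 in dnOGAh-Tg 1 to 5. The value of dnOGAh-Tg 4 was far above the rest; the gene was not called over all 10 libraries (log2 change 1.91, SE 0.86, adjusted p = 0.131) but was without dnOGAh-Tg 4, when the change was 0.85 (adjusted p = 0.0051). The part of atrial RNA in the values of dnOGAh-Tg 4 was not tested.

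Genes that set the electrical state of the cardiomyocyte membrane fell more often than they rose. Among 23 potassium channel genes 11 fell and 0 rose (median -0.40), against 11.1% lower among all genes tested; 0 rose in the limma test as well as with edgeR and DESeq2 on recovered reads. Abcc9, the regulatory subunit of the ATP-sensitive potassium channel of heart and vessels (chromosome 6, 142533588 to 142648041), had 15164, 11204, 13719.8, 12586 and 13248 in Control 1 to 5 and 2355, 2675, 4239.9, 3063 and 4283 in dnOGAh-Tg 1 to 5. The highest dnOGAh-Tg library held less than the lowest Control library by a wide margin (log2 change -2.02, SE 0.16, adjusted p = 5.19e-06). Kcnv2, a silent subunit that modifies other channels, fell from 621 ± 32.9 to 142 ± 27.3 (log2 change -2.14, SE 0.12, adjusted p = 5.93e-07). Kcnd2, a pore subunit of the fast transient outward current, had 951, 845, 945, 852 and 649.5 in Control 1 to 5 and 282, 342, 534, 231 and 402 in dnOGAh-Tg 1 to 5. Its groups were apart (log2 change -1.29, SE 0.20, adjusted p = 0.000525). Kcnip2, the partner subunit of that current and named after its values were seen, had 7392, 9748, 1992, 8149.6 and 9482 in Control 1 to 5 and 1307, 2379, 919.8, 749.8 and 981 in dnOGAh-Tg 1 to 5. Control 3 lay inside the dnOGAh-Tg range and the other Control libraries far above it (log2 change -2.47, SE 0.41, adjusted p = 0.00103). Kcnq1, of the slow delayed rectifier, fell from 1318 ± 118 to 773 ± 124 (-0.78, SE 0.12), Kcnj2, of the inward rectifier, from 1416 ± 314 to 768 ± 282 (-0.92, SE 0.23), and Abcc8, another ATP-sensitive channel subunit, from 1412 ± 51.5 to 884 ± 103 (-0.68, SE 0.09).

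In sodium and chloride transport 7 of 16 tested genes fell and 2 rose (median -0.38). Slc8a1, the sodium-calcium exchanger, fell from 11158 ± 1624 to 6704 ± 1982 (log2 change -0.77, SE 0.18, adjusted p = 0.00794), and the sodium channel subunit Scn4b from 2520.2 ± 615 to 1229 ± 307 (log2 change -1.04, SE 0.20, adjusted p = 0.00244). The chloride-bicarbonate exchanger Slc4a3 fell from 10030.2 ± 1088 to 6735 ± 454 (-0.57, SE 0.09), and the chloride channel Clcn1 from 72.6 ± 19.3 to 21.4 ± 11.6 (-1.85, SE 0.36). Against these falls stood Atp1b4, a protein related to the beta subunits of the sodium pump and located in muscle at the inner nuclear membrane, with 1.07, 1.02, 3.12, 2.16 and 0 in Control 1 to 5 and 206, 149, 140.0, 132 and 44.3 in dnOGAh-Tg 1 to 5. It was close to 0 in all Control libraries (log2 change 5.77, SE 0.45, adjusted p = 4.25e-06).

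Adrenergic receptor genes fell together with regulators of G proteins. Of 25 tested genes of adrenergic and cyclic AMP signalling, 12 fell and 1 rose (median -0.32), with 7 lower without Control 5. Adra1a, the alpha-1A receptor (chromosome 14, 66872700 to 67008617), had 769, 573, 329.8, 472 and 437 in Control 1 to 5 and 142, 128, 211, 151 and 97.6 in dnOGAh-Tg 1 to 5. All dnOGAh-Tg libraries were below all Control libraries (log2 change -1.80, SE 0.23, adjusted p = 0.000153). Adra1b, the alpha-1B receptor, fell from 1376 ± 160.0 to 728 ± 149 (log2 change -0.93, SE 0.14, adjusted p = 0.000428), and Adrb1, the main beta receptor of the ventricle, from 679 ± 94.3 to 483 ± 60.6 (log2 change -0.49, SE 0.12, adjusted p = 0.0108) with groups that overlapped. Rgs2 and Rgs4, which shorten signals of G proteins, fell from 1212 ± 172 to 599 ± 113 (-1.02, SE 0.14) and from 1029.9 ± 81.5 to 681 ± 91.8 (-0.60, SE 0.11).

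**Figure D3:**
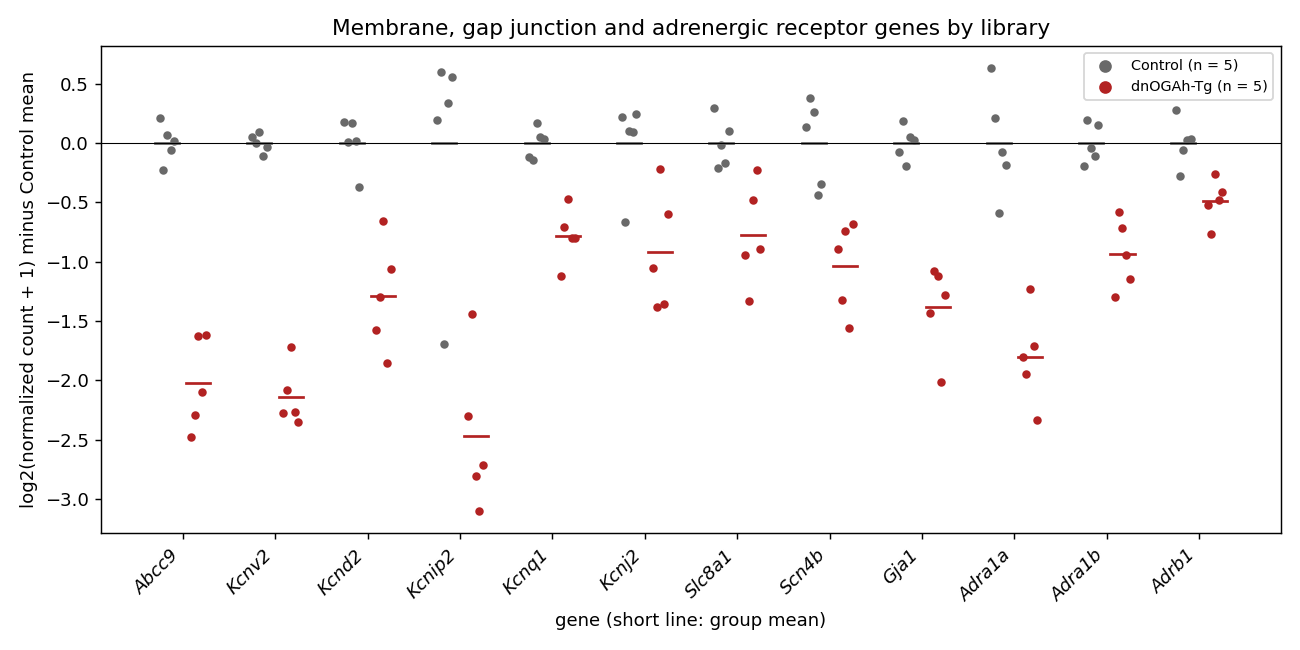
Log2 of the normalized count after adding 1, minus the Control mean on that scale (vertical axis), for genes of the membrane, the gap junction and adrenergic receptors, with each point 1 library, Control in grey and dnOGAh-Tg in red. All dnOGAh-Tg points of Abcc9, Kcnv2, Kcnd2, Adra1a and Gja1 lie below the Control points, and Control 3 stands apart in Kcnip2.

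In the list of calcineurin, CaMKII and MAP kinase signalling 3 of 26 members rose and 3 fell (median -0.12), a share near that of all genes, with 5 lower without dnOGAh-Tg 3 or without dnOGAh-Tg 4. Rcan1, a target and inhibitor of calcineurin, had 5024, 8935, 3844, 4407 and 6728 in Control 1 to 5 and 13262, 11890.1, 7634, 10951 and 9401 in dnOGAh-Tg 1 to 5. The groups overlapped (log2 change 0.92, SE 0.22, adjusted p = 0.0082). Camk2b, a kinase isoform better known from brain, rose from 659 ± 175 to 1604 ± 212 (log2 change 1.31, SE 0.16, adjusted p = 0.000117), and Nfatc2, a transcription factor activated by calcineurin, from 449 ± 89.2 to 728 ± 49.7 (0.72, SE 0.13). The kinase genes Mapk14 and Prkce fell (log2 change -0.55, SE 0.08, and -0.43, SE 0.08). The main cardiac kinase isoform gene Camk2d was at -0.16 (adjusted p = 0.449).

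Of 25 core cardiac transcription factors tested, 4 fell and 2 rose (median -0.24), a share near the 11.1% lower and 11.3% higher of all genes tested. Hopx, a homeodomain-only cofactor that restrains growth of cardiomyocytes (chromosome 5, 77234835 to 77262968), had 8126, 13398, 8858, 11424 and 11386 in Control 1 to 5 and 2329, 4582, 4018, 3013 and 3772 in dnOGAh-Tg 1 to 5. Its groups were far apart (log2 change -1.60, SE 0.18, adjusted p = 6.85e-05). Hand2, a basic helix-loop-helix factor of the heart, had 2119, 2469.6, 1617, 2408 and 1490.3 in Control 1 to 5 and 894, 1225, 887, 804 and 955 in dnOGAh-Tg 1 to 5. It fell with groups apart (log2 change -1.07, SE 0.16, adjusted p = 0.000414). Irx4, a factor of ventricular identity, fell from 1079.6 ± 134 to 719 ± 75.8 (-0.58, SE 0.11), and Nkx2-5, a central homeodomain factor of the heart, rose from 2447 ± 326 to 3659 ± 487 (log2 change 0.58, SE 0.12, adjusted p = 0.00333). Gata4 (0.07, adjusted p = 0.623) and Tbx5 (0.26, adjusted p = 0.33) were not called. The count of higher members was 1 without Control 2, 3 or 5 or dnOGAh-Tg 1, 4 or 5, and that of lower members was 7 without dnOGAh-Tg 3.

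Secreted factors went both ways, with 10 of 42 tested genes higher and 11 lower (median -0.00). Hbegf, a growth factor of the epidermal type that cardiomyocytes release, had 621, 767, 775, 508 and 733 in Control 1 to 5 and 2089, 2040.0, 1594, 2172 and 1374 in dnOGAh-Tg 1 to 5. All dnOGAh-Tg libraries exceeded all Control libraries (log2 change 1.44, SE 0.15, adjusted p = 3.83e-05). Fstl3, a secreted binder of activin and myostatin, rose from 258 ± 55.2 to 774 ± 185 (log2 change 1.57, SE 0.18, adjusted p = 6.86e-05). Fgf16, a fibroblast growth factor of the cardiomyocyte, had 515, 702, 549, 652 and 736 in Control 1 to 5 and 235, 274, 293, 240.1 and 269.7 in dnOGAh-Tg 1 to 5. It fell with groups apart (log2 change -1.25, SE 0.12, adjusted p = 1.89e-05), and Fgf13, a family member that stays in the cell and binds sodium channels, fell from 1672 ± 70.01 to 937 ± 151 (-0.85, SE 0.11). Gdf15, a stress hormone, was not called (log2 change 1.02, SE 0.62, adjusted p = 0.268), nor was Igf1 (0.30, adjusted p = 0.394). Gdf15 had 279, 629, 54.1, 119 and 205 in Control 1 to 5 and 788, 818, 123, 362 and 282 in dnOGAh-Tg 1 to 5. Each dnOGAh-Tg library was above the Control library of the same number. With that number as a replicate block in limma Gdf15 was called (adjusted p = 0.00283). What the number marks is not stated in the labels. The count of lower members was 6 without Control 1, Control 4 or dnOGAh-Tg 1 and 7 without dnOGAh-Tg 3 or 5.

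The integrated stress response lets a cell slow protein synthesis and, through the transcription factor ATF4, raise genes of amino acid supply. Of 27 tested members of this list 11 rose and 3 fell (median 0.37). ATF4 is known to act with C/EBP proteins on an element whose core is TGATGNAA, and the promoters of a pair of these genes and of a tRNA synthetase gene, from 250 bases before to 50 after the start, are shown with matches to that core on either strand in capitals. They are RefSeq windows on GRCm38.p6, an older build than that of the counts, matched by gene symbol: Asns on the minus strand of chr6:7693160-7693459, Chac1 on the plus strand of chr2:119350992-119351291 and Aars on the plus strand of chr8:111033592-111033891.
Asns: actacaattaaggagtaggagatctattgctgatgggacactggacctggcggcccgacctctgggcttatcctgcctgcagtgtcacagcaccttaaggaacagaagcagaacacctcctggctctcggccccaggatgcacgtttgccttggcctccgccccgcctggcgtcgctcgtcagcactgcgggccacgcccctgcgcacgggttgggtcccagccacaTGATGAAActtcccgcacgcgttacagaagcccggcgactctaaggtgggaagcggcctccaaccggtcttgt
Chac1: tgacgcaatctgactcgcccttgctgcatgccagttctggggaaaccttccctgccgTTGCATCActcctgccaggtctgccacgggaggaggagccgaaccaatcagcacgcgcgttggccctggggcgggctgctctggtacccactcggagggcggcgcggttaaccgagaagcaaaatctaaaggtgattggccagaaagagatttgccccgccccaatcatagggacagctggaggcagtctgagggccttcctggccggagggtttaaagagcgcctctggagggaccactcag
Aars: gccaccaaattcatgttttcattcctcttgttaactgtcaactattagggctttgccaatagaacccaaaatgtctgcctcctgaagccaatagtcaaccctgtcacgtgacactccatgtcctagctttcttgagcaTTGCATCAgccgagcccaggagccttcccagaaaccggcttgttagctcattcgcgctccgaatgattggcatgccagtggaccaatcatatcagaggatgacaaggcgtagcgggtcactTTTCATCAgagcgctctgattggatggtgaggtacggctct
The core was found in the windows of 9 of 26 genes of the list with a window (34.6%), of 5 of 13 cytosolic tRNA synthetase genes (38.5%), of 0 of 17 genes of serine and one-carbon metabolism and of 4.51% of all 27025 genes with a window. Among tested genes it was in 3.37% of those that rose, 3.21% of those that fell and 2.6% of the rest. Of the 5 synthetase genes with the core 3 rose, and of all 20 tested synthetase genes 8 rose. Of the 9 list genes 5 rose and 1 fell. Those that rose were Asns, Trib3, Chac1, Pycr1 and Nupr1, of which Trib3, Chac1 and Nupr1 are named after the matches were seen. Another of the 9, Slc7a11, also named after the matches were seen, was below the filter and not tested. Of all 27 tested members of the list 11 rose. The list was assembled around ATF4, so a high share of the core in it could be foreseen. A match is a description of letters in these windows.

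Asns, which makes asparagine, had 120.4, 88.5, 63.5, 95 and 65.8 in Control 1 to 5 and 481, 479, 289, 273 and 257 in dnOGAh-Tg 1 to 5. The groups were apart (log2 change 2.01, SE 0.23, adjusted p = 6.65e-05). Slc7a5, a carrier of large neutral amino acids, had 259, 217, 255, 255 and 220.3 in Control 1 to 5 and 954, 698, 717, 750.5 and 659 in dnOGAh-Tg 1 to 5. It rose with little spread in either group (log2 change 1.64, SE 0.11, adjusted p = 1.92e-06). Atf4 itself rose from 2451 ± 380.0 to 4064 ± 956 (log2 change 0.71, SE 0.15, adjusted p = 0.00532), and Ddit3, a factor downstream of it, from 579 ± 155 to 1053 ± 346 (0.84, SE 0.22). Pycr1 and Aldh18a1, enzymes of proline synthesis, rose from 38.4 ± 9.76 to 125 ± 35 (1.66, SE 0.23) and from 319 ± 45.5 to 567 ± 67.7 (0.83, SE 0.12). Chac1, which breaks down glutathione, had 95.9, 31.5, 89.5, 68 and 76 in Control 1 to 5 and 335, 183, 180.4, 213 and 206 in dnOGAh-Tg 1 to 5. Its dnOGAh-Tg libraries all lay above the Control libraries (log2 change 1.67, SE 0.28, adjusted p = 0.000948). Of the 20 cytosolic tRNA synthetase genes, which charge tRNAs with amino acids, 8 rose and 0 fell by limma, with a median of 0.17; DESeq2 on recovered reads called 1 lower and edgeR 0, and 1 gene, Farsb (named after its values were seen), was lower at an unadjusted p under 0.05 (-0.17, unadjusted p = 0.0273). Sars rose from 2459 ± 177 to 3943 ± 694 (log2 change 0.67, SE 0.11, adjusted p = 0.00112), Cars from 622 ± 40.4 to 1010.0 ± 123 (0.69, SE 0.10) and Aars from 2337 ± 125 to 3432 ± 289.7 (0.55, SE 0.08).

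**Figure D4:**
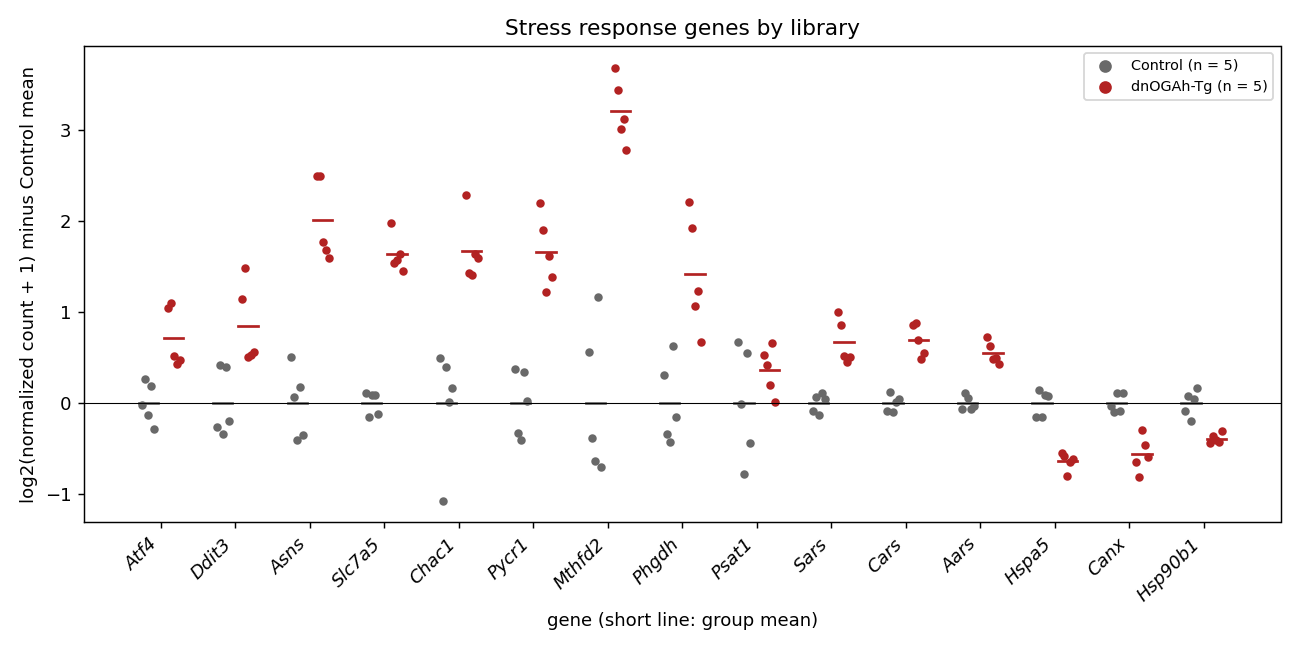
Log2 of the normalized count after adding 1, minus the Control mean on that scale (vertical axis), for genes of the ATF4 response, of one-carbon metabolism, of tRNA synthetases and of endoplasmic reticulum chaperones, with each point 1 library, Control in grey and dnOGAh-Tg in red. Asns, Slc7a5, Mthfd2 and Sars lie above the Control points in all dnOGAh-Tg libraries, and Hspa5 and Canx lie below.

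Serine and one-carbon enzymes changed both ways, with 6 of 19 higher and 3 lower (median 0.02). Mthfd2, the mitochondrial folate enzyme, had 166, 85.5, 71.8, 253 and 68.4 in Control 1 to 5 and 1457, 1229, 913, 982 and 777 in dnOGAh-Tg 1 to 5. The lowest dnOGAh-Tg library held more than the highest Control library (log2 change 3.21, SE 0.33, adjusted p = 2.96e-05). Phgdh, the first enzyme of serine synthesis, rose from 33.9 ± 11.4 to 96.2 ± 42.7 (1.42, SE 0.31), and Mthfd1l, a folate enzyme, from 31 ± 13.4 to 62.5 ± 14.4 (1.04, SE 0.26) with groups that overlapped. Psat1, the next enzyme of serine synthesis, was not called (log2 change 0.36, SE 0.26, adjusted p = 0.357). Mtr, which remakes methionine from homocysteine, fell from 8404 ± 979 to 4684 ± 825 (log2 change -0.85, SE 0.13, adjusted p = 0.000442). The count of lower members was 1 without Control 2, Control 5 or dnOGAh-Tg 3.

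The unfolded protein response of the endoplasmic reticulum, another arm of stress signalling, had a share of calls near the background: of 21 members 1 rose and 3 fell (median -0.05), 19.0% called against 22.5% of all genes tested. Hspa5, the main chaperone of that compartment, had 16303, 20117, 16358, 19367 and 19221 in Control 1 to 5 and 12416, 12184, 10469, 11610.4 and 11924 in dnOGAh-Tg 1 to 5. It fell with groups apart (log2 change -0.64, SE 0.09, adjusted p = 0.00035), as did Canx, which folds glycoproteins, from 11272 ± 805 to 7676 ± 1042 (log2 change -0.56, SE 0.10, adjusted p = 0.00166) and Hsp90b1 from 10349 ± 1011 to 7869.8 ± 308 (-0.39, SE 0.08). The 1 higher member, Dnajb11, was not called without Control 1, 4 or 5 or dnOGAh-Tg 1 or 5, which left 0. Xbp1, a transcription factor of this response, was at -0.12 (adjusted p = 0.506).

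Chaperones of cytosol and of mitochondria were taken as another list. Of 25 members 6 rose and 4 fell (median 0.15), or 8 and 2 with quantile normalization. The cytosolic chaperone genes Hsp90aa1 (from 3294 ± 479 to 5173 ± 555, 0.66, SE 0.11), Hspa4 (0.36, SE 0.09) and Hspb2 (0.66, SE 0.14) rose. Trap1, the mitochondrial member of the Hsp90 family, had 5138, 6132, 5394, 5497 and 6033 in Control 1 to 5 and 2988, 3498, 2834, 2331 and 2883 in dnOGAh-Tg 1 to 5. It fell with groups apart (log2 change -0.96, SE 0.10, adjusted p = 4.46e-05). Hspd1, the mitochondrial chaperonin, fell from 8182 ± 259 to 6475 ± 754 (-0.34, SE 0.09) but was not called with quantile normalization (-0.25, adjusted p = 0.0715).

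Of 28 antioxidant genes 4 rose and 6 fell (median -0.08). The glutathione peroxidase genes Gpx1 and Gpx3 rose, Gpx1 from 1972 ± 244 to 4041 ± 664 (log2 change 1.03, SE 0.12, adjusted p = 9.62e-05) and the secreted Gpx3 from 8091 ± 1258 to 17849 ± 4062 (log2 change 1.12, SE 0.16, adjusted p = 0.000412). Mitochondrial superoxide dismutase Sod2 had 17386, 20011, 17806, 20458 and 19218 in Control 1 to 5 and 12402, 12839, 12003, 11366 and 12071 in dnOGAh-Tg 1 to 5. All dnOGAh-Tg libraries were below the Control libraries (log2 change -0.64, SE 0.08, adjusted p = 0.00013). The mitochondrial peroxiredoxin Prdx3 fell from 10891 ± 578 to 8330.5 ± 543 (-0.39, SE 0.08) and Nqo1, a target of NRF2, from 2245 ± 514 to 1454 ± 203 (-0.61, SE 0.15). Nfe2l2, which encodes NRF2, was at 0.08 (adjusted p = 0.554).

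The enzymes by which NAD is remade moved in opposite directions. Nampt, which makes NAD from nicotinamide, had 8222, 8806, 5924, 8319 and 8211 in Control 1 to 5 and 3734, 3902, 4644, 3398 and 3375 in dnOGAh-Tg 1 to 5. Control 3 was the lowest Control library, and all dnOGAh-Tg libraries were lower still (log2 change -1.05, SE 0.12, adjusted p = 7.82e-05). Nmrk2, the muscle kinase that makes NAD from nicotinamide riboside (chromosome 10, 81034004 to 81037885), had 939.6, 948, 87.4, 488 and 1110.4 in Control 1 to 5 and 4088, 5196, 2016, 3627 and 3340.5 in dnOGAh-Tg 1 to 5. The dnOGAh-Tg libraries all exceeded the Control libraries (log2 change 2.71, SE 0.57, adjusted p = 0.00438). Nmnat3, a mitochondrial enzyme of the last step, fell from 414 ± 43.9 to 217 ± 26 (-0.93, SE 0.11), and Cad, the first enzyme of pyrimidine synthesis, from 653 ± 85.3 to 397 ± 37.9 (-0.71, SE 0.11). Of 28 tested members of this list, which also holds nucleotide metabolism, 11 fell and 2 rose (median -0.30). Sirt3, the mitochondrial NAD-dependent deacylase, was at -0.30 (adjusted p = 0.118).

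Carriers of the inner mitochondrial membrane fell in 11 of 26 genes and rose in 2 (median -0.29), with 1 higher without Control 1, Control 4 or dnOGAh-Tg 5. Slc25a13, an aspartate-glutamate carrier, had 6069, 5609, 5535, 5684 and 5490.0 in Control 1 to 5 and 2987, 2621, 3104, 2721 and 3452 in dnOGAh-Tg 1 to 5. It fell with groups apart (log2 change -0.94, SE 0.09, adjusted p = 1.5e-05). The glutamate carrier Slc25a22 fell from 1299.9 ± 101 to 671 ± 59.2 (-0.95, SE 0.09), Slc25a42, which carries coenzyme A, from 2367 ± 202 to 1260.5 ± 118 (-0.91, SE 0.09), the phosphate carrier Slc25a3 from 52957 ± 5394 to 36960.3 ± 2857 (-0.52, SE 0.10) and the carnitine carrier Slc25a20 from 4949.6 ± 647 to 3360.2 ± 222 (-0.55, SE 0.10).

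Lipid metabolism was read over synthesis, storage and breakdown together. Of 28 tested genes 10 fell and 3 rose (median -0.29), with 1 higher without dnOGAh-Tg 1, 2 or 5. Lpl, the lipase that frees fatty acids from lipoproteins, had 172281, 163307, 124701, 194789.5 and 152494 in Control 1 to 5 and 86307, 92129.8, 84184, 82908 and 87034 in dnOGAh-Tg 1 to 5. The groups were apart (log2 change -0.89, SE 0.13, adjusted p = 0.000389). Dgat2, which makes triglyceride, had 7427, 9145, 6497, 9125 and 8489.5 in Control 1 to 5 and 3812, 4406, 3719, 3518 and 3801 in dnOGAh-Tg 1 to 5. It fell as well (log2 change -1.07, SE 0.11, adjusted p = 2.41e-05), as did the hormone-sensitive lipase Lipe from 1439 ± 209 to 862 ± 61.3 (-0.73, SE 0.10). Fatty acid synthase Fasn (-0.33, adjusted p = 0.153), Acaca (-0.13, adjusted p = 0.457) and the desaturase Scd1 (0.19, adjusted p = 0.42) were not called. In sterol and steroid metabolism 5 of 25 rose and 2 fell (median 0.16), against 11.3% higher and 11.1% lower among all genes tested. Star, which brings cholesterol into mitochondria for steroid synthesis, had 42.6, 13.2, 25, 28.1 and 12.7 in Control 1 to 5 and 1241, 679, 807, 866 and 593 in dnOGAh-Tg 1 to 5. It was among the 5 largest rises of all named genes (log2 change 5.14, SE 0.31, adjusted p = 6.54e-07). Tspo, a cholesterol-binding protein of the outer membrane, rose from 1100.5 ± 125 to 1999 ± 560.1 (0.82, SE 0.17), while Fdft1, an enzyme of cholesterol synthesis, fell from 993 ± 40.00 to 727 ± 82.3 (-0.46, SE 0.09).

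Creatine, arginine and polyamine metabolism had 5 of 21 genes higher and 3 lower (median 0.04), with 3 higher without Control 1, 2 or 4 or dnOGAh-Tg 1 or 5. Ckm, the muscle creatine kinase that buffers ATP at the sarcomere, had 56317, 90069, 52178, 71921 and 66408 in Control 1 to 5 and 30859, 45802, 25326, 25237 and 34898 in dnOGAh-Tg 1 to 5. It fell with groups apart (log2 change -1.07, SE 0.19, adjusted p = 0.00134), and Ckmt2, named after its values were seen, fell from 73283 ± 13464 to 48167 ± 6852 (-0.60, SE 0.15). Asl, which splits argininosuccinate to give arginine, rose (log2 change 0.84, SE 0.16, adjusted p = 0.00189), and Azin2, an inhibitor of antizyme, rose from 74.6 ± 13.2 to 203 ± 26.5 (1.44, SE 0.15).

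Cathepsins, the proteases of lysosomes, were among the genes of autophagy and lysosome that rose. Of 29 members of that list 7 rose and 2 fell (median 0.09). Ctsz had 1203, 1050.1, 917, 1213 and 1086 in Control 1 to 5 and 2688, 2904, 1883, 1892 and 2318 in dnOGAh-Tg 1 to 5. This cathepsin rose with groups apart (log2 change 1.08, SE 0.13, adjusted p = 0.000118), as did Ctsl from 4955 ± 330.5 to 7846 ± 1267 (0.65, SE 0.11) and Ctsk from 248 ± 38.2 to 462 ± 95 (0.88, SE 0.15). Lamp2, a lysosomal membrane protein, was at 0.09 (adjusted p = 0.602). Depp1, a target of FOXO factors, fell from 1348 ± 296 to 567 ± 135 (-1.25, SE 0.18). Of 29 genes of muscle ubiquitin ligases and the proteasome 8 fell and 3 rose (median -0.21), with 1 higher without Control 4, Control 5 or dnOGAh-Tg 1, and 5 in each direction with quantile normalization. The muscle ligase gene Asb14 (-0.59, SE 0.08) and Trim55 (-0.48, SE 0.07) fell, and Fbxo32, the atrophy ligase atrogin-1, was at -0.21 (adjusted p = 0.348).

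In the cytoskeleton 8 of 29 genes rose and 2 fell (median 0.17). Tpm2, the beta-tropomyosin of slow skeletal and smooth muscle (chromosome 4, 43514711 to 43523765), had 869, 1031, 817, 1084 and 639 in Control 1 to 5 and 3636, 2817, 4091, 4339.5 and 4134 in dnOGAh-Tg 1 to 5. The groups were far apart (log2 change 2.11, SE 0.15, adjusted p = 2.34e-06). Map1b, a microtubule-binding protein, rose from 476 ± 59.6 to 1313 ± 313 (1.44, SE 0.15), and the keratin genes Krt18 and Krt80 from 40.5 ± 15.2 to 332 ± 90.1 (3.05, SE 0.28) and from 185 ± 87.5 to 782 ± 218 (2.14, SE 0.27). Among integrins and proteins of adhesion 5 of 34 rose and 6 fell (median -0.06), against 11.3% higher and 11.1% lower among all genes tested. Gja1, the main gap junction protein of the ventricle, had 15256, 18304, 14020.4, 16611 and 16374 in Control 1 to 5 and 5939, 7619, 7378, 3984 and 6611 in dnOGAh-Tg 1 to 5. All dnOGAh-Tg libraries were below all Control libraries (log2 change -1.38, SE 0.16, adjusted p = 6.56e-05). Ncam1, an adhesion molecule of nerve and of regenerating muscle, rose from 70.6 ± 26.8 to 306 ± 59.96 (2.15, SE 0.21), Itga5, the fibronectin receptor subunit, rose from 1757 ± 154 to 2900.0 ± 309.8 (0.72, SE 0.09), and Lama5, a laminin chain of basement membranes, fell from 3943 ± 554 to 2225 ± 249.7 (-0.82, SE 0.11).

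Metalloproteases and their inhibitors had 9 of 31 genes higher and 1 lower (median 0.22), with 2 and 3 lower without dnOGAh-Tg 3 and 4. Beside Adamts8 and Adamts20, the protease-like matrix gene Adamtsl2 had 449.5, 364, 258, 359 and 313 in Control 1 to 5 and 1736, 1376, 841, 1775 and 1122 in dnOGAh-Tg 1 to 5. It rose with groups apart (log2 change 1.94, SE 0.20, adjusted p = 3.57e-05). Timp1, an inhibitor of matrix metalloproteases, had 88.4, 40.7, 12.5, 65.9 and 20.3 in Control 1 to 5 and 299.6, 231, 84.6, 208 and 272 in dnOGAh-Tg 1 to 5. Its groups overlapped at dnOGAh-Tg 3 (log2 change 2.44, SE 0.49, adjusted p = 0.00329). Mmp2, a gelatinase of fibroblasts, rose from 2854 ± 615 to 4411 ± 699 (0.64, SE 0.15).

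Targets and parts of the YAP, Wnt and Notch pathways rose in 8 of 29 genes and fell in 5 (median 0.07), with 1 to 3 lower without Control 1, 2, 3, 4 or 5 or dnOGAh-Tg 1, 2 or 5. Ccn1, a secreted matrix protein and YAP target, rose from 2703 ± 908 to 4755 ± 680.4 (log2 change 0.87, SE 0.21, adjusted p = 0.00908), Fzd2, a Wnt receptor, from 189 ± 24.6 to 509 ± 61.1 (1.42, SE 0.12) and Dkk3, a secreted protein of the Dickkopf family that is also an atrial marker, from 126 ± 52.2 to 499 ± 306 (1.91, SE 0.36). Without dnOGAh-Tg 4 the change of Dkk3 was 1.61 (adjusted p = 0.00223). Yap1 was at 0.14 (adjusted p = 0.28). Insulin and growth factor signalling had 6 of 27 genes lower and 3 higher (median -0.22), against 11.1% lower and 11.3% higher among all genes tested. Tbc1d4, which holds glucose transporters inside the cell until insulin acts, fell from 2817 ± 446 to 1822 ± 348 (log2 change -0.64, SE 0.14, adjusted p = 0.0056), Mtor, the nutrient-sensing kinase, fell from 2243 ± 288 to 1576 ± 173 (-0.51, SE 0.11), and Igf1r, the receptor for insulin-like growth factor, rose from 943 ± 59.9 to 1335 ± 82.2 (0.50, SE 0.08).

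Among genes of p53 and cell death 7 of 24 rose and 1 fell (median 0.15), with 0 lower without Control 4 or dnOGAh-Tg 5. Tnfrsf12a, the receptor for the cytokine TWEAK, had 1615, 3336, 1990.1, 2226 and 2390.5 in Control 1 to 5 and 6575, 7453, 4284, 5957 and 5058 in dnOGAh-Tg 1 to 5. The groups were apart (log2 change 1.36, SE 0.19, adjusted p = 0.000253). Casp12 rose from 389 ± 53.5 to 672 ± 111 (0.78, SE 0.13) and Zmat3, a target of p53, from 388 ± 40.5 to 547 ± 49.97 (0.49, SE 0.10). Mdm2 was at 0.20 (adjusted p = 0.196). Immediate early genes, which answer growth signals within minutes, rose in 5 of 21 and fell in 0, with 3 higher without Control 1, dnOGAh-Tg 1 or dnOGAh-Tg 2. The zinc finger factors Egr2 (from 37.7 ± 23 to 133 ± 56, 1.85, SE 0.37) and Egr3 (from 65.8 ± 45 to 187 ± 78, 1.60, SE 0.39) rose with groups that overlapped, and Egr1 was at 0.48 (adjusted p = 0.454). By edgeR and DESeq2 on recovered reads 0 immediate early genes fell as well, and 0 had an unadjusted p under 0.05 in limma in that direction.

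Other lists held 1 to 5 called members each. The share called was 10.7% for mitosis and replication, 5.26% for clock, 10.7% for interferon and 12.5% for chromatin genes. It was 26.3% for RNA binding and splicing and 23.5% for imprinted and long non-coding genes, against 22.5% of all genes tested. Of 28 genes of mitosis and DNA replication 2 rose and 1 fell, with 0 higher without Control 2, Control 4 or dnOGAh-Tg 1, 4 or 5 and 1 without Control 5. Cenpf, a kinetochore protein, was the gene that fell, from 483 ± 236 to 145 ± 74.1 (log2 change -1.74, SE 0.44, adjusted p = 0.0119), and the replication enzyme gene Top2a was at 0.44 (adjusted p = 0.517). Of 19 clock genes 1 rose and 0 fell by limma, with 2 higher without dnOGAh-Tg 1 and 1 lower without Control 4. Bhlhe41, a repressor in the clock, was the 1 that rose, from 702 ± 145 to 1077 ± 136 (0.63, SE 0.14). Of 28 interferon response genes 3 rose and 0 fell, with 0 higher without dnOGAh-Tg 5, 1 without Control 4 and 5 without dnOGAh-Tg 2. Of 19 genes of RNA binding and splicing 1 rose and 4 fell, with 1 or 2 lower without Control 1, 2, 4 or 5 or dnOGAh-Tg 1, 2 or 5, and 2 higher without Control 3 or dnOGAh-Tg 2; beside Rbfox1, Mbnl1 was at -0.09 (adjusted p = 0.477). Of 24 chromatin genes 3 fell and 0 rose, among them Smyd1, a muscle methyltransferase, from 13340.3 ± 1155 to 9708 ± 1136 (log2 change -0.46, SE 0.10, adjusted p = 0.00469). Of 17 imprinted and long non-coding genes 2 rose and 2 fell, counts that lay between 1 and 4 and between 1 and 3 when single libraries were left out; Grb10, an adaptor that restrains insulin signalling, fell from 3141 ± 489.8 to 2018 ± 168 (-0.63, SE 0.11). Of the counts of 0 by limma in these lists, those of clock and interferon genes were also 0 with edgeR and DESeq2 on recovered reads, and for chromatin genes edgeR called 0 and DESeq2 1 higher. At an unadjusted p under 0.05, 1 clock gene (Nr1d1) was lower, 0 interferon genes were lower and 1 chromatin gene (Bap1) was higher; both are named after their values were seen.

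**Figure D5:**
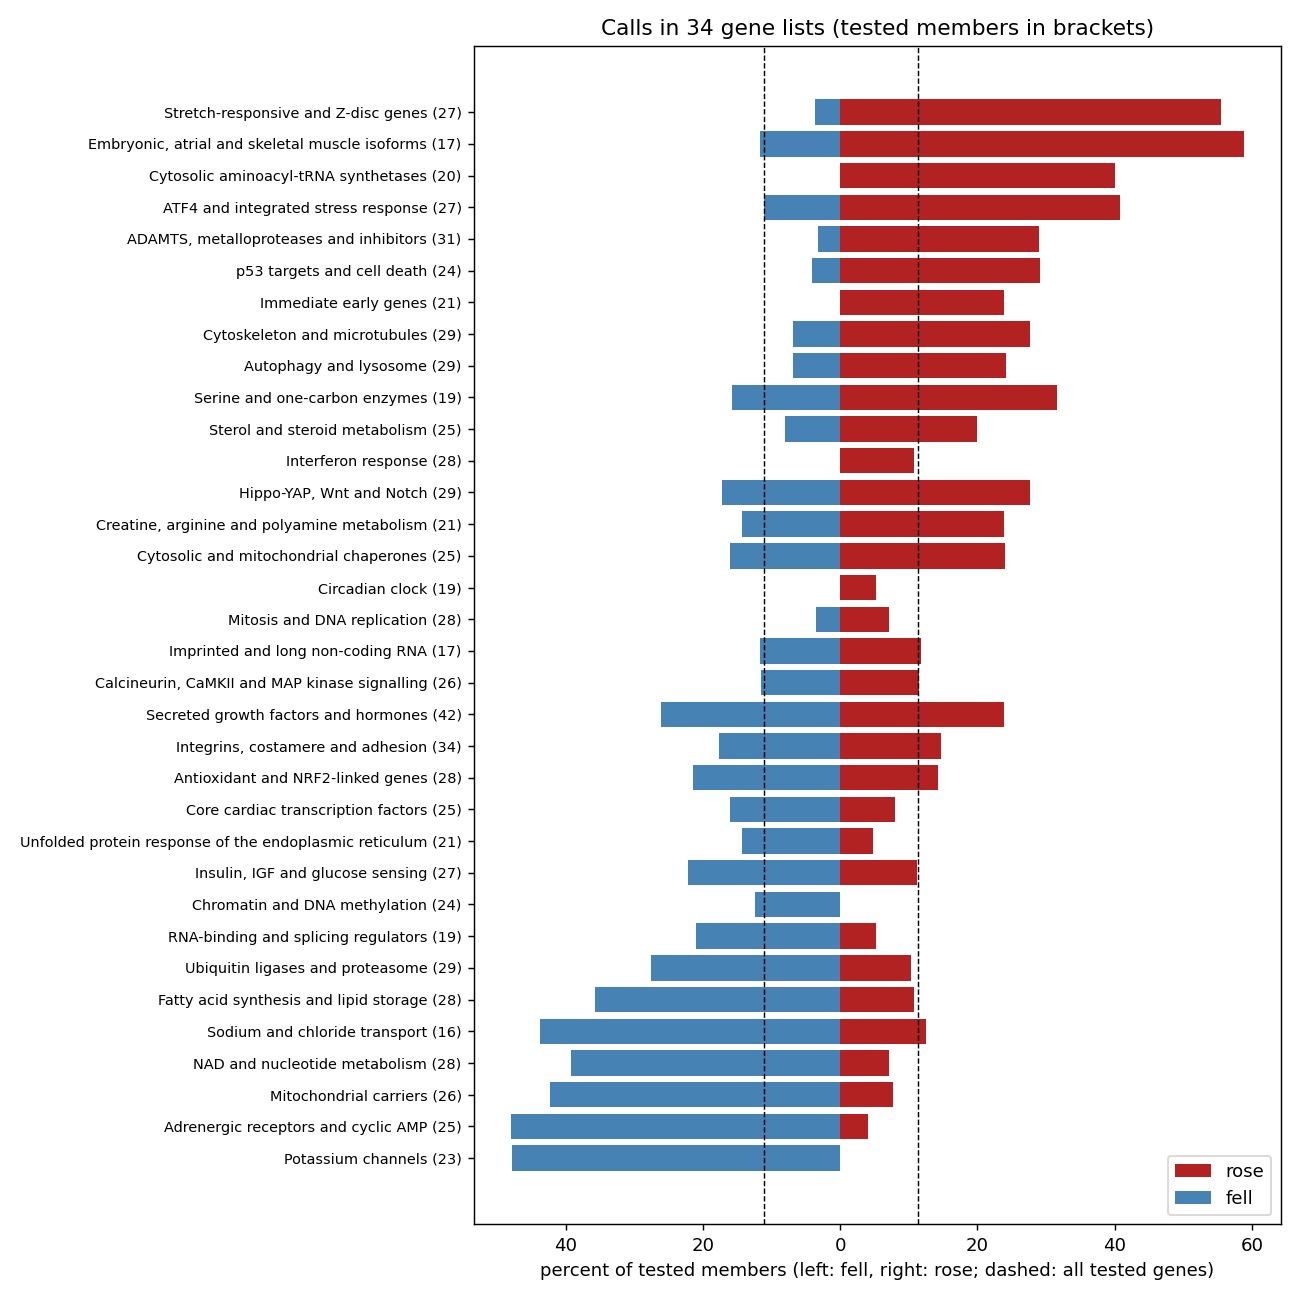
Percent of the tested members of each of 34 gene lists that rose (red, to the right) or fell (blue, to the left) at a limma adjusted p under 0.05, with the dashed lines at the share of all 14676 tested genes, 11.3% higher and 11.1% lower. Stretch and Z-disc genes and muscle isoforms extend farthest to the right, and adrenergic and potassium channel genes farthest to the left. Some muscle isoforms reached the filter only with their dnOGAh-Tg libraries, which favours members that rose. The lists were chosen with earlier results of these data known.

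Markers of the cells of the ventricle were read beside these groups. Of all genes tested 11.3% rose and 11.1% fell, the background for each marker list. In bulk tissue, fewer cells of a type and less RNA per cell cannot be told apart. Of 12 ventricular cardiomyocyte markers 6 fell and 0 rose (median -0.52), and their summed counts ran from 2449262 to 2945382 in Control and 1645138 to 2107495 in dnOGAh-Tg. Endothelial markers fell in 8 of 12 genes and rose in 0 (median -0.41, summed counts 52779 to 63398 in Control and 38553 to 48319 in dnOGAh-Tg), with 4 lower without Control 4 or without dnOGAh-Tg 1. Fibroblast markers rose in 5 of 11 genes and fell in 0 (median 0.52, summed counts 83569.7 to 113609.8 in Control and 96801 to 165849 in dnOGAh-Tg). Mural cell markers fell in 3 of 10 and rose in 1, with 1 lower without Control 4, Control 5 or dnOGAh-Tg 1 and 0 higher without Control 2, 3, 4 or 5 or dnOGAh-Tg 3, 4 or 5; Abcc9, which cardiomyocytes also express, is among those that fell. Erythroid markers fell in 4 of 4 and rose in 0 (median -0.81).

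Markers of immune cells were not called. Of 12 macrophage markers 0 rose and 0 fell (median 0.40, summed counts 4176 to 8012 in Control and 5768 to 9496 in dnOGAh-Tg), with 1 higher without Control 5, dnOGAh-Tg 2 or dnOGAh-Tg 4. DESeq2 called 1 higher and edgeR 0, with 1 member at an unadjusted p under 0.05 in limma. Of lymphocyte markers 3 and of neutrophil markers 2 passed the filter, and 0 of either were called, with 0 at an unadjusted p under 0.05. Of atrial markers 8 passed the filter, 4 rose and 1 fell, or 5 and 1 without dnOGAh-Tg 4, with summed counts of 8244 to 22201 in Control and 151214 to 310189 in dnOGAh-Tg, most of them from Nppa, which is induced in loaded ventricles as well; 0 were lower without Control 1, Control 3 or dnOGAh-Tg 1, 2 or 5. Nppa, named after its values were seen, had 18468, 18472, 4500.4, 10851 and 19209 in Control 1 to 5 and 275958, 306402, 156691, 155299.7 and 147659.6 in dnOGAh-Tg 1 to 5. It was not highest in dnOGAh-Tg 4, and its change was 3.97 with and 4.06 without that library (adjusted p = 1.81e-05 and 5.61e-05). The atrial marker Sln reached the filter only with its dnOGAh-Tg libraries. Skeletal muscle markers numbered 3 above the filter, with 1 higher and 1 lower. Conduction system markers fell in 3 of 9 and rose in 0, with 1 lower without Control 4, dnOGAh-Tg 1 or dnOGAh-Tg 5. Of 7 Schwann cell markers 1, Ncam1, rose and 0 fell. Adipocyte markers fell in 1 of 7 and rose in 0, with 0 lower without Control 4 or dnOGAh-Tg 1. The 1 that fell, Fabp4, named after its values were seen, is also counted among the endothelial markers that fell. Of 6 epicardial markers 0 rose and 0 fell, with 1 higher without dnOGAh-Tg 4 and with edgeR and DESeq2, and 1 in each direction at an unadjusted p under 0.05. The part that any of these cells had in the gene groups above was not tested.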

How the data were processed

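The authors deposited a table of normalized signal per gene, which the value steps show to be read counts divided by one factor for each library, with gene symbols and coordinates. Per the submitters' processing notes, the tools were STAR 2.7.3a, cutadapt 2.6, Trim Galore 0.6.6, DESeq2 and R 4.0.3, with the build GRCm39; for the read counter, annotation and strand setting the labels say nothing. RNA was extracted with a column kit for fibrous tissue, per the labels' protocols. Genes with values of at least 10 in at least 5 of 10 libraries were tested with limma 3.58.1 (trend) on log2(value + 1), with two-sided p-values adjusted by Benjamini-Hochberg across every gene that passed the filter, and called under 0.05. A fold change on this scale understates the change of low genes. Whole reads recovered from the value steps were tested with edgeR 4.0.16 and DESeq2 1.42.0 as alternatives, with 100% of values whole within 0.01 reads; they called 3253 and 3889 genes. The pipeline was tested on simulated counts with 199 changed genes of 14521, fewer than the 3296 called in the data. It called 77% of the genes changed by a log2 of 1 and 97.0% of those changed by 2. Of its calls 6.99% were false. The members and all 34 gene lists and 14 marker lists were chosen with earlier results of these data known. Named genes were Oga, the 15 largest rises and 15 largest falls that were called, had non-overlapping groups and a group mean of at least 50, the first 3 members of each list and its 4 called members with the smallest p, and the 10 smallest adjusted p-values beyond these; other names are marked where they appear. Not every gene the rule takes is described, and some of them are not reported here. Promoter windows were RefSeq sequences on GRCm38.p6.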

Additional observations from a re-analysis of the deposited data

Results flagged for a closer look

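A library was picked out where its gap to the nearest other library of its group, divided by the range of the group on the log2 scale, was above Dixon's critical value of 0.71 for 5 libraries. That held for 19 of 326 groups of named genes, and chance gives about 1 in 20. Control 3 stood below the other Control libraries in Kcnip2, with 1992 against 7392 to 9748 counts, and in Nampt, with 5924 against 8211 to 8806. dnOGAh-Tg 4 stood above its group in Myl4, with 4528 against 96.6 to 142, and below it in Abcc8, with 706 against 887 to 955. dnOGAh-Tg 3 stood below its group in Timp1 with 84.6 counts and in Hsp90aa1 with 4231 counts, and above it in Asb14 with 2133 counts.

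The other groups had 1 library apart in the same way. In Control the value was 87.4 for Ildr2 in Control 1, 1.07 for Mybpc1 in Control 1, 871 for Kcnj2 in Control 2, 1249.6 for Prkce in Control 2, 4.32 for Adgra1 in Control 4, 19.0 for Ckmt1 in Control 5 and 7743 for Hspd1 in Control 5. In dnOGAh-Tg it was 335 for Chac1 and 413 for Ncam1 in dnOGAh-Tg 1, 82601 for Csrp3 and 460 for Zmat3 in dnOGAh-Tg 2 and 44.3 for Atp1b4 in dnOGAh-Tg 5. What sets these libraries apart was not tested.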

How the results depend on the processing

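Of 140 named genes that were called, 139 kept their call and direction under every alternative run for them, at most 19 for a gene. The alternatives changed the pseudocount, the filter, the scaling or the test, added the replicate block or left out each library. Syt13, Mybpc1, Clcn1 and Atp1b4 fell below the filter of 50, so that alternative was not run for them. Hspd1 lost its call with quantile normalization. None of the named genes changed sign. Named genes were largely picked for a small p or a large change, which favours keeping a call. Of all 3296 main calls, 2497 to 2896 were kept when single libraries were left out. The count of 3296 calls became 1814 (937 higher, 877 lower) at an adjusted p under 0.01, ranged from 2524 to 3183 when single libraries were left out, and stayed within 1.5 times under the others, with 3253 by edgeR and 3889 by DESeq2 on recovered reads. Same-numbered libraries share a code in their titles, but the correlation of their deviations from the group means ran from -0.15 to 0.52 over the 5 numbers and 2 of 5 correlated best with their own number. With the number as a replicate block 3921 genes were called, 1919 higher and 2002 lower, and Gdf15 and Csrp3 were called as well (adjusted p = 0.00283 and 0.0182). Depth limits the genes with low counts: 5309 genes were below the filter and were not tested, and without the filter 3335 genes were called, of which 3032 were among the 3296.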
